A study of Mus musculus with 30 samples.

Results

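Trans-synaptic adhesion molecules and synapse organizers are the membrane and secreted proteins that hold the presynaptic and postsynaptic sides of a synapse together and induce their assembly. Counts of 54 such genes in 17 families were examined in hippocampal RNA from TIMP2 KO and wildtype (WT) mice. The genes were listed by name, with earlier results of these data known, and no measured value entered the rule. They were 54 of the 49315 gene identifiers in the count table. All 54 were found, and all 54 passed the filter on low counts that left 16486 genes for testing. The TIMP2 KO group had 13 mice, 6 of them male and 7 female. The WT group had 17 mice, 10 of them male and 7 female, and both groups were on the C57BL/6J strain. TIMP2 KO is a deletion obtained from the Jackson Laboratory that is not driven by Cre, and WT littermates were the controls in the study. The labels give neither the age of each mouse nor the date of tissue harvest. Nothing in the labels says that mice were pooled, and each library was treated as 1 mouse.

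The families divide by the side of the synapse they occupy. On the presynaptic side, neurexins and the LAR-type receptor phosphatases are hub receptors that bind many partners. Neuroligins, LRRTMs and, through secreted cerebellins, glutamate receptors of the delta type are the partners of neurexins, whereas SLITRKs, several SALMs, the IL-1 receptor relatives and Lrrc4b bind the LAR-type phosphatases. Netrin-Gs are lipid-anchored presynaptic proteins that bind the netrin-G ligands, and latrophilins are adhesion G protein-coupled receptors that bind teneurins and FLRTs. SynCAMs are immunoglobulin proteins that bind one another across the cleft. In the hippocampus these systems are known for setting which axons contact which dendritic layers of granule and pyramidal cells.

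The mice and libraries were checked first. Totals of counts on genes lay between 18345517 and 41081083 in TIMP2 KO mice and between 19445246 and 32098386 in WT mice. Timp2, the deleted gene, was between 130.0 and 171 CPM (counts scaled to library size and corrected for library composition) in the 13 KO mice and between 256 and 380 CPM in the 17 WT mice. The KO and WT values of Timp2 did not overlap, and counts summed over a gene cannot show which exons the remaining reads came from. Prox1, a defining marker of dentate gyrus granule cells, was at 103 CPM or more in every mouse, and Gad1, a defining marker of GABAergic interneurons, at 305 CPM or more. One KO female, mouse 11, held 635 CPM of the choroid plexus marker Ttr, against a KO median of 5.00 and a WT range of 0.269 to 36.5 CPM. One KO male, mouse 18, was the lowest KO mouse for 19 of the 54 members.

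The level of each member was first compared per length, as CPM per kilobase of annotated exon (FPKM), which allows one gene to be set against another. WT means ran from 208 FPKM ± 4.95 (SD, n = 17) for Clstn1 to 1.53 FPKM ± 0.205 for Il1rapl1, a 136-fold range. Clstn1, the calsyntenin that also docks vesicles to kinesin, made up 17.6% of the sum over all members. The 5 members with the highest level (Clstn1, Cadm4, Lrrc4b, Cadm3 and Clstn3) together made up 41.2% of that sum.

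By family, the calsyntenins held 25.1% of the summed WT level, the SynCAMs 17.4% and the netrin-G ligands 10.8%. Each of the remaining families held at most 6.39%, the share of the SLITRKs. Within families the level was unevenly divided. C1ql3 was 19.4 times Cbln1 among the secreted organizers, Adgrl1 was 15.5 times Adgrl2 among the latrophilins, and Lrrtm1 was 8.28 times Lrrtm4 among the LRRTMs. The SALMs, with a ratio of 1.64 between Lrfn1 and Lrfn5, and the pair Ncam1 and Cdh2, with a ratio of 1.66, were more even. These levels depend on the length used, and 12 of the 54 members moved by over 1.5 times when the longest transcript stood in for all annotated exons. Per longest transcript Adgrl1 was 6.93 times Adgrl2, C1ql3 was 17.9 times Cbln1, and Lrfn5 was the highest SALM instead of the lowest.

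Only some neighbours in this order stood apart beyond their spread. Cadm4, at 84.2 FPKM ± 3.88, lay below Clstn1 by 19.6 times their combined SD. Clstn2 (30.1 FPKM ± 2.30) and Ptprs (30.1 FPKM ± 0.984) did not differ beyond their spread, nor did C1ql3 (33.0 FPKM ± 2.98) and Cadm2 (32.8 FPKM ± 2.93). Per longest transcript Ptprs, at 65.7 FPKM ± 2.15, lay above Clstn2, at 39.2 FPKM ± 3.00, while C1ql3 (33.0 FPKM ± 2.98) and Cadm2 (33.7 FPKM ± 3.01) stayed within their spread. In KO mice the mean level was 208 FPKM ± 6.58 (n = 13) for Clstn1 and 1.52 FPKM ± 0.221 for Il1rapl1.

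**Figure D1:**
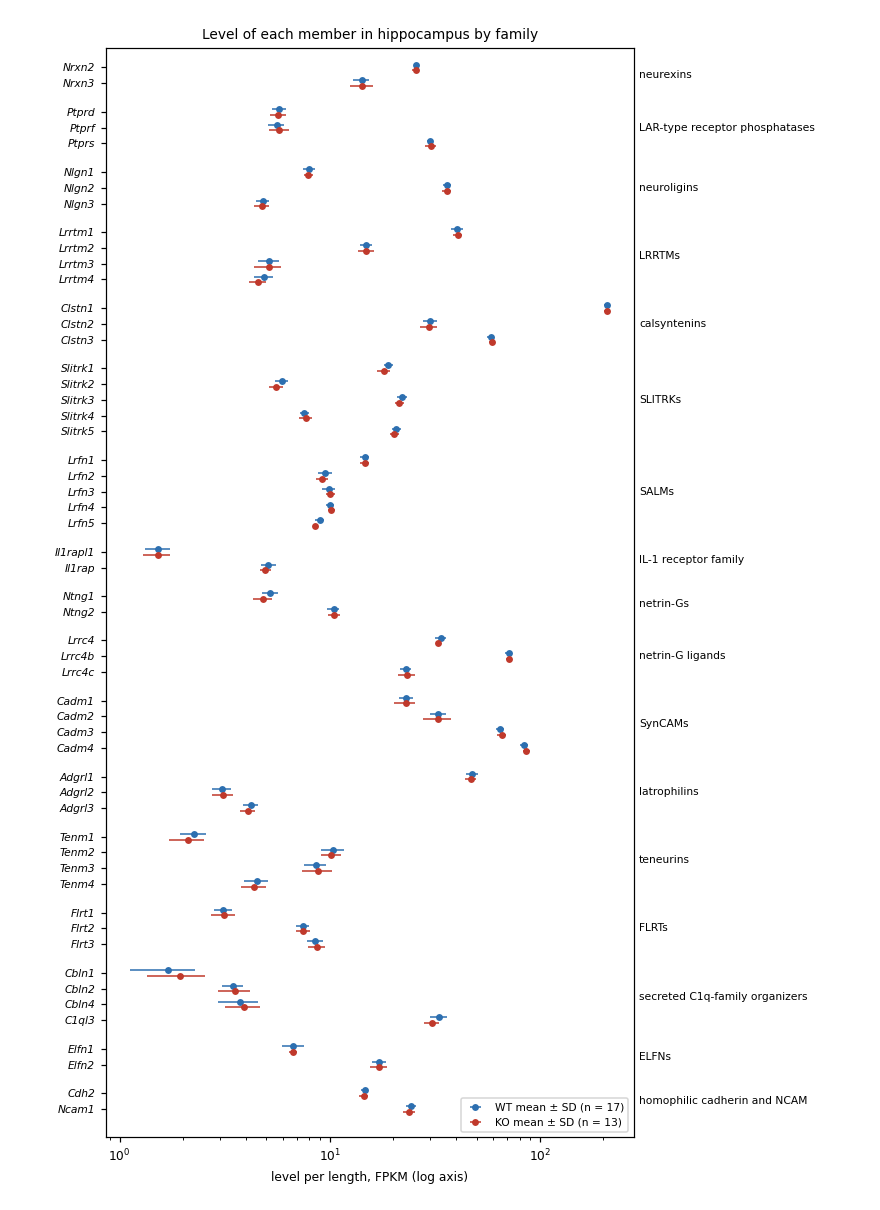
Level of each of the 54 members per length, in FPKM on a log axis, grouped by family; points are the mean and bars the SD of 17 WT (blue) and 13 KO (red) mice. Clstn1 is highest at 208 FPKM in WT mice and Il1rapl1 lowest at 1.53 FPKM, and the KO mean is 208 FPKM for Clstn1 and 1.52 FPKM for Il1rapl1.

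KO was then compared with WT by edgeR's quasi-likelihood test over all 16486 genes, with both sexes pooled. Members lay close to no difference. The median log2 fold change over the 54 members was -0.009, against 0.0001 over all genes tested, and 30 members had a value below 0 and 24 a value above 0. A value below 0 was found for 49.8% of all genes tested. No member had an adjusted p under 0.05 in edgeR (Benjamini-Hochberg over all genes), where 0.0425% of all genes had one. The same count was 0 in DESeq2 and 0 in limma voom. At an unadjusted p under 0.05 there were 5 of 54 members (9.26%), against 4.88% of all genes, and the counts were 5 in DESeq2 and 6 in limma voom.

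All 5 were lower in KO: Lrfn5, C1ql3, Slitrk1, Slitrk2 and Ntng1. Of all genes, 2.5% were lower in KO at an unadjusted p under 0.05. For 40 of the 54 members the 95% interval of the fold change lay inside 1.1-fold in either direction, and for 51 inside 1.2-fold. The intervals that reached past 1.2-fold belonged to Cbln1, Cbln4 and Tenm1. The KO and WT ranges overlapped for every one of the 54 members. The share of all genes with overlapping ranges was not counted, so the members cannot be set against other genes in this.

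**Figure D2:**
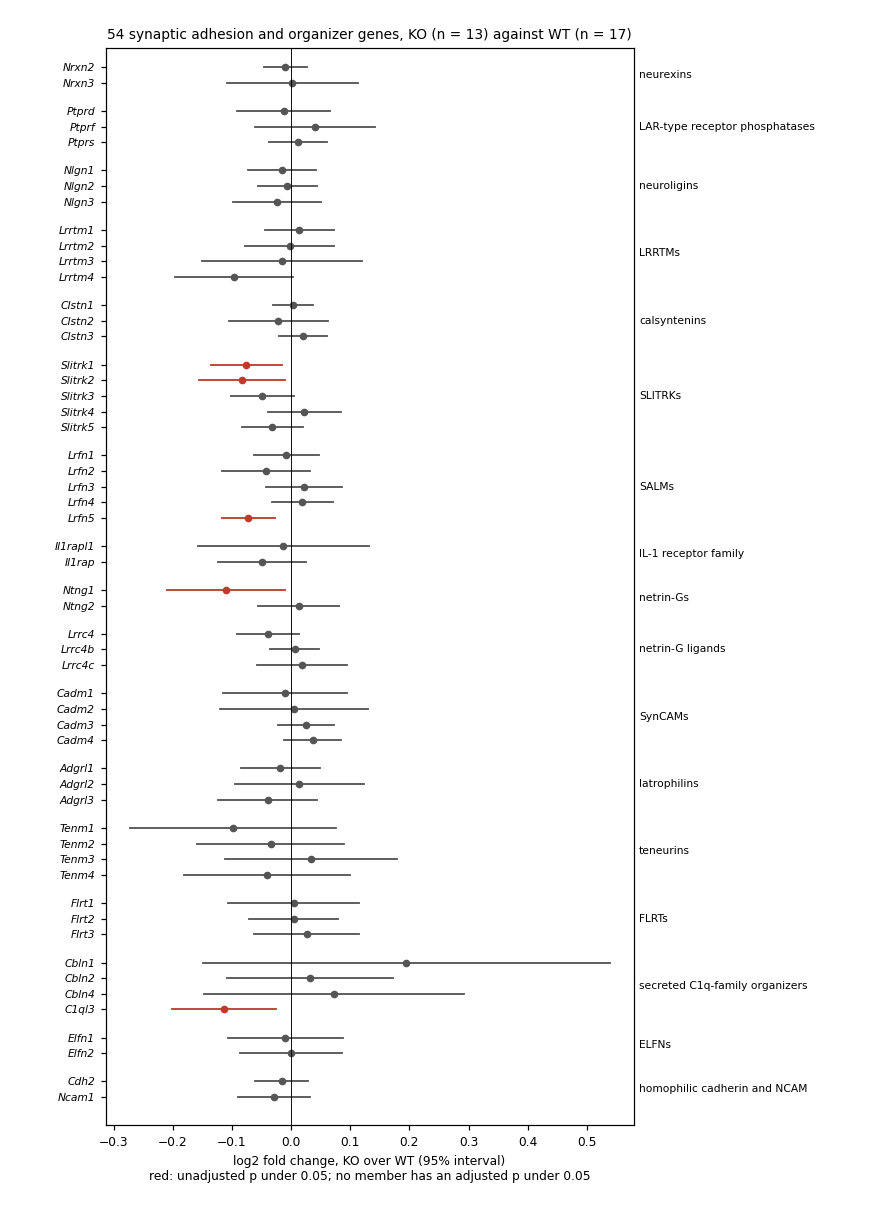
Log2 fold change of KO over WT for each member with its 95% interval from edgeR, grouped by family; red marks an unadjusted p under 0.05. The 5 red genes lie between -0.11 and -0.07, and the Cbln1 interval is the widest, from -0.15 to 0.54.

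The hub receptors counted on the presynaptic side had log2 fold changes near 0, with intervals of unequal width. Nrxn2, a neurexin, ranged from 330 to 380 CPM with a median of 355 in KO mice and from 340 to 375 CPM in WT mice, whose median was 357. Its log2 fold change was -0.01 (SE 0.02, 95% interval -0.05 to 0.03, adjusted p = 0.998 by edgeR). The ranges covered each other, and Nrxn2 had the second smallest spread between mice of all members. Nrxn3, the other neurexin counted, was at 0.00 with an interval from -0.11 to 0.11.

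Ptprs, the most abundant of the LAR-type phosphatases, ranged from 420 to 498 CPM with a median of 458 in KO mice and from 425 to 477 CPM in WT mice, whose median was 447. Its log2 fold change was 0.01 (SE 0.02, adjusted p = 0.998). Ptprd and Ptprf, the other members of this receptor family, had log2 fold changes of -0.01 and 0.04. Their 95% intervals ran from -0.09 to 0.07 and from -0.06 to 0.14. No member of either hub family had an unadjusted p under 0.05.

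Among the postsynaptic partners of neurexins, the 3 neuroligins all had values just below 0, between -0.02 and -0.01 on the log2 scale. Nlgn2, the neuroligin of inhibitory synapses, ranged from 193 to 233 CPM with a median of 211 in KO mice and from 189 to 226 CPM in WT mice, whose median was 208. Neither range extended clear of the other, and the interval of its log2 fold change ran from -0.06 to 0.04.

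Lrrtm1, the most abundant LRRTM, ranged from 115 to 134 CPM (median 124) in KO mice and from 111 to 133 CPM (median 125) in WT mice, with a log2 fold change of 0.01 (SE 0.03). Lrrtm4, an organizer of excitatory synapses on dentate granule cells, was at -0.10 (SE 0.05) with an unadjusted p of 0.0577 in edgeR across all genes. This p fell on the other side of 0.05 with sex as a covariate, with total counts as a covariate, without mouse 11 and in males alone.

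The secreted C1q-family proteins, which bridge the cleft from the presynaptic side, held the extremes of the whole set. C1ql3, a ligand of the receptor Adgrb3, ranged from 67.6 to 88.0 CPM with a median of 77.1 in KO mice and from 71.6 to 100.2 CPM in WT mice, whose median was 81.2. The lowest KO values lay just below the WT range, 5 WT mice lay above the highest KO mouse, and 9 of 13 KO mice were below the WT median. The log2 fold change of C1ql3 was -0.11 (SE 0.04, 95% interval -0.20 to -0.02), with an unadjusted p of 0.014 and an adjusted p of 0.974 in edgeR. C1ql3 lies at chr2:13003457-13011806 on the minus strand of GRCm38. Of its exons, 1627 bases overlap genes on the opposite strand, whose counts came to 3.85% of its own, so its counts are less certain. Exons of 20 members overlap another gene. Lrrtm2 shares 95 bases with Ctnna1 on the opposite strand, whose counts came to 65.88% of those of Lrrtm2.

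Cbln1, a cerebellin, ranged from 3.52 to 8.29 CPM (median 5.32) in KO mice and from 3.25 to 8.85 CPM (median 4.48) in WT mice. Its log2 fold change of 0.19 was the highest of all members and had an SE of 0.17 (adjusted p = 0.998 by edgeR). The difference was smaller than the spread between mice, an SD of log2 CPM within genotype of 0.46. Cbln1 also had the lowest count of any member in any mouse, 80.

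Cbln4 ranged from 7.28 to 15.0 CPM (median 11.8) in KO mice and from 7.22 to 14.3 CPM (median 11.2) in WT mice, with a log2 fold change of 0.07 (SE 0.11). The genotypes spanned nearly the same values. Cbln2 had a log2 fold change of 0.03 (SE 0.07).

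Among the SLITRKs 2 of 5 members had an unadjusted p under 0.05, and among the SALMs 1 of 5, against 4.88% of all genes. No family was tested as a set. Slitrk1, a leucine-rich repeat protein on the postsynaptic side, ranged from 84.9 to 105 CPM with a median of 98.1 in KO mice and from 95.9 to 112 CPM in WT mice, whose median was 101. Of the KO mice, 5 lay below the lowest WT mouse, and the 4 highest values were in WT mice. The log2 fold change was -0.08 (SE 0.03, unadjusted p = 0.0142, adjusted p = 0.974 by edgeR).

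Slitrk2, an X-linked relative, ranged from 37.4 to 50.3 CPM with a median of 45.4 in KO mice and from 43.2 to 54.97 CPM in WT mice, whose median was 46.8. The 3 lowest values were in KO mice and the 3 highest in WT mice. The log2 fold change of Slitrk2 was -0.08 (SE 0.04, unadjusted p = 0.0253, adjusted p = 0.9875 by edgeR), and without mouse 18, its lowest mouse, it was -0.06 with an unadjusted p of 0.064. Slitrk1 lies at chr14:108908800-108914158 on the minus strand and Slitrk2 at chrX:66649318-66661393 on the plus strand.

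Slitrk3, the most abundant SLITRK and an organizer of inhibitory synapses, ranged from 94.9 to 116 CPM (median 103) in KO mice and from 96.9 to 119 CPM (median 108) in WT mice. Nearly all values were shared by both genotypes, although 11 of 13 KO mice were below the WT median, and the log2 fold change was -0.05 (SE 0.03, unadjusted p = 0.070 by edgeR). Slitrk5 was at -0.03 and Slitrk4 at 0.02, and the median of the family was -0.05.

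Lrfn5, a SALM of the postsynaptic membrane, had the smallest p of all members. It ranged from 77.6 to 86.1 CPM with a median of 81.5 in KO mice and from 78.9 to 93.9 CPM in WT mice, whose median was 85.3. Of the KO mice, 12 of 13 were below the WT median, and 6 WT mice lay above the highest KO mouse. The log2 fold change was -0.07 (SE 0.02, 95% interval -0.12 to -0.03), a fold of 0.951, with an unadjusted p of 0.00227 and an adjusted p of 0.773 in edgeR. Lrfn5 lies at chr12:61523150-61858342 on the plus strand.

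The other SALMs lay on both sides of 0, from -0.04 for Lrfn2 to 0.02 for Lrfn3. Lrfn1, the highest per annotated exon length, ranged from 51.0 to 61.7 CPM (median 58.0) in KO mice and from 52.0 to 62.9 CPM (median 58.5) in WT mice. The genotypes were level for Lrfn1, with a log2 fold change of -0.01 (SE 0.03). Il1rap, the more abundant IL-1 receptor relative, ranged from 48.9 to 62.4 CPM (median 56.3) in KO mice and from 51.0 to 67.1 CPM (median 57.7) in WT mice. Il1rap had a log2 fold change of -0.05 (SE 0.04), smaller than the spread between mice.

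Of the netrin-Gs, Ntng1, whose protein binds Lrrc4c, ranged from 30.6 to 44.1 CPM with a median of 40.4 in KO mice and from 32.5 to 47.5 CPM in WT mice, whose median was 43.7. There were 7 WT mice above the highest KO mouse, and 11 of 13 KO mice were below the WT median. The log2 fold change of Ntng1 was -0.11 (SE 0.05, unadjusted p = 0.0325, adjusted p = 0.9875 by edgeR), and -0.08 with an unadjusted p of 0.0706 without mouse 18. Ntng1 lies at chr3:109780040-110144011 on the minus strand.

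Ntng2, whose protein binds Lrrc4, ranged from 35.8 to 45.5 CPM (median 42.5) in KO mice and from 37.4 to 46.5 CPM (median 41.7) in WT mice, with a log2 fold change of 0.01 (SE 0.03). Its exons share 558 bases with a gene on the same strand, whose counts came to 63.2% of those of Ntng2, so the counts of Ntng2 are uncertain. Nlgn3 and Cadm3 also share exon bases, 3823 and 361, with a gene on the same strand, whose counts came to 0.48% and 4.28% of theirs. Lrrc4b, the most abundant netrin-G ligand, ranged from 197 to 222 CPM (median 210) in KO mice and from 193 to 219 CPM (median 210) in WT mice. Lrrc4b had a log2 fold change of 0.01 (SE 0.02), and those of Lrrc4 and Lrrc4c were -0.04 and 0.02. Lrrc4, singled out after its values were seen, was below the WT median in all 13 KO mice, and 9 WT mice lay above the highest KO mouse, with an unadjusted p of 0.135 in edgeR.

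**Figure D3:**
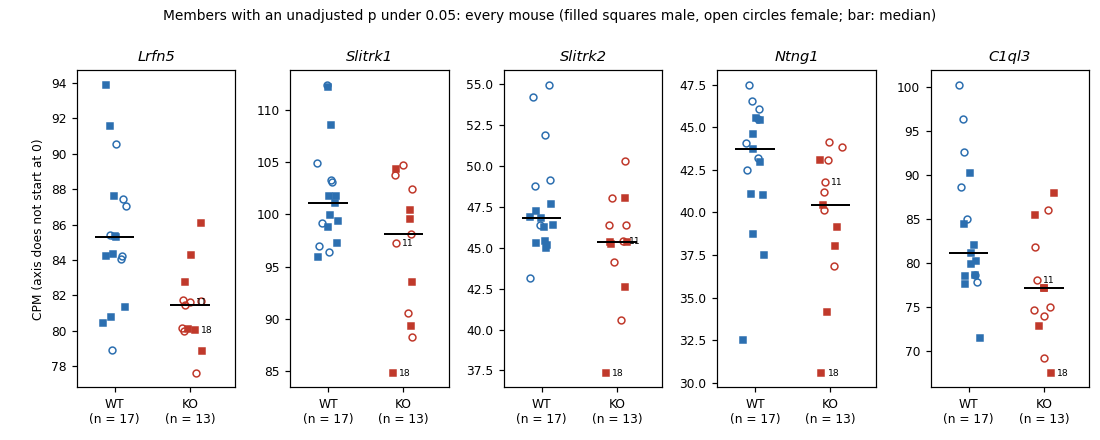
CPM of the 5 members with an unadjusted p under 0.05 in every mouse, WT in blue and KO in red, with filled squares for males, open circles for females and a bar at the median; the axes do not start at 0, and mice 11 and 18 are numbered. KO medians are lower for each gene, 81.5 against 85.3 CPM for Lrfn5, the ranges overlap, and mouse 18 is the lowest KO mouse for Slitrk1, Slitrk2, Ntng1 and C1ql3.

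The permutation test of log2 CPM (2-sided, 100000 resamples) gave for these 5 members p = 0.00166 for Lrfn5, 0.0194 for C1ql3, 0.0197 for Slitrk1, 0.035 for Slitrk2 and 0.05 for Ntng1. Ntng1 thus did not pass 0.05 in that test. Markers of dentate gyrus granule cells were compared between genotypes in the edgeR fit. Of 11 such markers, all tested, 3 were lower in KO at an unadjusted p under 0.05 and 0 were higher. Of all genes, 2.5% were lower in KO at that threshold. Their summed level lay between 715 and 908 CPM in KO mice and between 765 and 1127 CPM in WT mice. These ranges overlapped, and none of the 11 was at or near 0. With the mean of these markers as a covariate, a choice made after the values were seen, 2 of the 54 members kept an unadjusted p under 0.05, Lrfn5 and Slitrk1, and the log2 fold change of C1ql3 became -0.04. In that fit 650 of all 16486 genes tested had an unadjusted p under 0.05, against 804 without the covariate. In whole hippocampus, fewer cells of a type and less RNA per cell cannot be told apart.

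Other marker lists were compared in the same way, where 4.88% of all genes had an unadjusted p under 0.05. Of 10 immediate early genes, 8 were higher in KO at an unadjusted p under 0.05, with a median log2 fold change of 0.39 and a summed level of 288 to 810 CPM in KO mice and 248 to 717 CPM in WT mice. Of 9 choroid plexus markers, 6 were tested and 5 were higher, with a median of 0.48 and a summed level of 134 to 1141 CPM in KO mice and 129 to 181 CPM in WT mice. Mouse 11 held the highest choroid plexus level. One astrocyte marker was higher and 1 endothelial and mural cell marker lower, and the remaining lists had 0 markers with an unadjusted p under 0.05 in edgeR. The part of the immediate early genes in the KO result was not tested.

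With sex and 8 surrogate variables in the fit, 0 of the 5 members kept an unadjusted p under 0.05. Ntng2, Lrrc4c and Cadm2 had one instead, all 3 higher in KO. Without mouse 18 the count was 4 (Lrfn5, Slitrk1, C1ql3 and Slitrk3), and without mouse 11 it was 6. Over all genes tested, 895 had one with surrogate variables, 904 without mouse 18 and 819 without mouse 11. None of these fits gave any member an adjusted p under 0.05.

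Latrophilins, teneurins and FLRTs, which form one binding network, had no member with an unadjusted p under 0.05. Adgrl1 ranged from 372 to 447 CPM (median 390) in KO mice and from 332 to 445 CPM (median 409) in WT mice, with a log2 fold change of -0.02 (SE 0.03). Tenm2 ranged from 102 to 144 CPM (median 113) in KO mice and from 91.4 to 154 CPM (median 120.1) in WT mice, so that the KO values fell inside the WT values. For Tenm2 the log2 fold change was -0.03 (SE 0.06).

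Tenm1, an X-linked teneurin, ranged from 28.0 to 52.5 CPM (median 36.4) in KO mice and from 30.9 to 53.8 CPM (median 40.2) in WT mice. Its log2 fold change of -0.10 had an SE of 0.09, and the genotypes overlapped over almost the whole range. Flrt3 ranged from 35.4 to 48.9 CPM (median 41.8) in KO mice and from 35.5 to 46.7 CPM (median 41.7) in WT mice, and all 3 FLRTs had log2 fold changes between 0.00 and 0.03.

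The SynCAMs, calsyntenins, ELFNs and the homophilic pair Cdh2 and Ncam1 likewise had no member with an unadjusted p under 0.05. Cadm4 ranged from 174 to 199 CPM (median 190) in KO mice and from 167 to 198 CPM (median 181) in WT mice, with a log2 fold change of 0.04 (SE 0.02). The ranges overlapped, and 10 of 13 KO mice were above the WT median. Elfn2, a leucine-rich repeat relative of the glutamate receptor organizer Elfn1, ranged from 121 to 162 CPM (median 142) in KO mice and from 115 to 159 CPM (median 138) in WT mice, with a log2 fold change of 0.00 (SE 0.04).

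Ncam1, the neural cell adhesion molecule, ranged from 179 to 225 CPM (median 210) in KO mice and from 192 to 230 CPM (median 213) in WT mice, with a log2 fold change of -0.03 (SE 0.03). Clstn1 ranged from 925 to 1022 CPM (median 968) in KO mice and from 941 to 1026 CPM (median 964) in WT mice. Clstn3, a calsyntenin with synapse-inducing activity, ranged from 281 to 306 CPM (median 297) in KO mice and from 271 to 309 CPM (median 289) in WT mice. Both calsyntenins were level between genotypes, with log2 fold changes of 0.00 (SE 0.02) and 0.02 (SE 0.02).

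Clstn1, Nrxn2 and Clstn3 were the members that varied least from mouse to mouse. The SD of log2 CPM within genotype was 0.04 for Clstn1 and Nrxn2 and 0.05 for Clstn3. Only 0.758% of the genes tested had a smaller SD than Clstn1, and 1.08% a smaller SD than Nrxn2. At the other end, Cbln1 had an SD of 0.46, Cbln4 0.31 and Tenm1 0.23. The median SD over members was 0.11, against 0.12 over all genes tested.

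Other genes of the same systems were set beside the members, from 3 lists, where 4.88% of all genes had an unadjusted p under 0.05 and 2.5% were lower in KO with one. Of 76 other adhesion genes, all tested, 3 had an unadjusted p under 0.05 and all 3 were lower in KO: Kirrel3 (log2 fold change -0.09, SE 0.04), Cdh8 (-0.06, SE 0.03) and Slitrk6 (-0.36, SE 0.18). Kirrel3 is an adhesion molecule of mossy fibre synapses and Cdh8 a classical cadherin. Slitrk6 was barely detected, at 0.299 to 1.36 CPM in KO mice and 0.470 to 1.67 CPM in WT mice. Of 37 cytoplasmic partners, 4 had one and all 4 were lower in KO, among them Ppfia2, a liprin-alpha of the presynaptic active zone (-0.08, SE 0.03), Lin7c (-0.05, SE 0.03) and Ctnnd2 (-0.05, SE 0.03). Of 17 genes for proteases and inhibitors that shed or cut such proteins, 16 were tested and 1, Psenen of the gamma-secretase complex, had one and was higher in KO (0.06, SE 0.03). That made 8 of 129 genes tested (6.2%), with a median log2 fold change of -0.009. None had an adjusted p under 0.05 by edgeR, DESeq2 or limma voom, which gave 8, 9 and 11 at an unadjusted p under 0.05.

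Females were compared with males with genotype as a covariate. No member had an adjusted p under 0.05 in edgeR, where 0.212% of all genes had one. In DESeq2 and in limma voom 1 member had one. At an unadjusted p under 0.05 there were 7 of 54 members, against 9.64% of all genes. Higher in females were Lrrtm4, Ntng1, Slitrk2, Ncam1 and Ntng2, with log2 fold changes of 0.17, 0.14, 0.09, 0.07 and 0.07. Lower in females were Slitrk4 and Lrfn3, at -0.06 and -0.07.

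Lrrtm4, singled out here after its values were seen, ranged from 24.9 to 35.5 CPM with a median of 30.4 in 14 females and from 24.1 to 30.5 CPM with a median of 27.6 in 16 males. The ranges overlapped, and 12 of the 14 females were above the male median. Its log2 fold change was 0.17 (SE 0.04, 95% interval 0.09 to 0.25), with an adjusted p of 0.0557 in edgeR. Lrrtm4 was the 1 member past the adjusted threshold in DESeq2, limma voom, the fit without a filter and the fit with total counts as a covariate. The mean log2 CPM of the dentate granule cell markers was 0.09 higher in females.

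The KO effect was also compared between the sexes through an interaction term. None of the members had an adjusted p under 0.05 in edgeR, DESeq2 or limma voom, and the share over all genes was 0.0%. At an unadjusted p under 0.05 there were 3 members (5.56%), against 2.49% of all genes, and the counts were 3 in DESeq2 and 4 in limma voom. Slitrk3 was between 94.9 and 106 CPM (median 103) in KO females and between 104 and 119 CPM (median 109) in WT females. In males it was between 97.4 and 116 CPM (median 104) in KO and between 96.9 and 113 CPM (median 106) in WT mice. The female ranges met only at their edges and the male ranges coincided. The interaction for Slitrk3 was -0.12 on the log2 scale (SE 0.05, unadjusted p = 0.0291 in edgeR).

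Il1rap was between 53.1 and 57.8 CPM (median 54.97) in KO females, between 53.5 and 67.1 CPM (median 57.7) in WT females, between 48.9 and 62.4 CPM (median 58.6) in KO males and between 51.0 and 60.8 CPM (median 56.7) in WT males. The interaction was -0.16 (SE 0.07, unadjusted p = 0.0328 in edgeR), with KO females in a narrow band at the low end of the WT females.

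Cbln2 was between 8.83 and 13.8 CPM (median 10.6) in KO females, between 8.56 and 12.0 CPM (median 9.83) in WT females, between 7.52 and 11.1 CPM (median 9.71) in KO males and between 8.38 and 11.8 CPM (median 10.0) in WT males. Its interaction ran the other way, at 0.27 (SE 0.13, unadjusted p = 0.0475 in edgeR), and all 4 groups overlapped. Without mouse 11 only Il1rap kept an unadjusted p under 0.05. Without mouse 18 the members with one were Il1rap and C1ql3, and with the granule cell markers as a covariate 0 of the 54 members had one. The shares of all genes in these other interaction fits are not given here, so these counts cannot be set against other genes.

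Mice of 1 genotype differed from one another, and this variation was compared with markers of the cell types a hippocampal dissection can hold. Each member's log2 CPM was correlated with the mean log2 CPM of 15 marker lists over 30 mice, with genotype means removed. Of 810 pairs of a member and a list, 22 had an adjusted p under 0.05 for Pearson's r (permutation within genotype, 100000 resamples, Benjamini-Hochberg over the 810 pairs), and 15 of these also had one for Spearman's rho. They involved 7 of the 15 lists. The points share a library and its normalization, so a gene that takes a larger share of 1 library leaves less for the others. The paper adjusted its co-expression network for isolation or harvest date, which was not available here. Cadm2, Tenm2 and Clstn2 lay below their genotype mean in every mouse numbered 1 to 12, and on both sides of it in later numbers. Nrxn3, Adgrl1, Adgrl3 and Tenm4 lay below theirs in most of mice 1 to 12. The permutations shuffled mice within genotype and took no account of this order. The part of harvest or run order in correlations with markers, or between members, was not tested.

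Dentate gyrus granule cell markers gave the most pairs, 7. Lrrtm4 had the highest correlation with them, r = 0.737 (permutation p = 1e-05, the smallest these permutations can give, adjusted p = 0.0027) and rho = 0.675 (permutation p = 3e-05, adjusted p = 0.0081). Without the 2 mice farthest from the median of the markers r was 0.638. Il1rap (r = 0.728), C1ql3 (r = 0.656), Clstn2 (r = 0.603) and Cadm2 (r = 0.549) also followed the granule cell markers, with adjusted permutation p-values of 0.004, 0.0061, 0.018 and 0.039. Cbln4 ran against them, at r = -0.731 (permutation p = 1e-05, adjusted p = 0.0027) and rho = -0.723 (permutation p = 1e-05, adjusted p = 0.0081), as did Cadm4 at r = -0.681 (adjusted permutation p = 0.0058). For Cbln4 r was -0.659 without the 2 farthest mice.

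Other members followed markers of the pyramidal fields. Tenm3, which is known for matching CA1 axons to their targets, had r = 0.730 with CA1 pyramidal cell markers (permutation p = 2e-05, adjusted p = 0.0032) and rho = 0.710 (permutation p = 6e-05, adjusted p = 0.0081). Its r was 0.705 without the 2 farthest mice. Flrt1 (r = 0.693) and Adgrl2 (r = 0.637), which belong to the same binding network, followed the CA1 markers too, with adjusted permutation p-values of 0.0032 and 0.018.

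Slitrk2 ran against CA2 and CA3 pyramidal cell markers, with r = -0.755 (permutation p = 1e-05, adjusted p = 0.0027), rho = -0.714 (permutation p = 4e-05, adjusted p = 0.0081) and r = -0.656 without the 2 farthest mice. Lrrtm3 (r = -0.636) and C1ql3 (r = -0.568) had the same sign. Cbln2 and Cbln1 followed neocortex and subiculum markers (r = 0.603 and 0.583), and Nrxn3, Ptprd and Cadm2 followed oligodendrocyte precursor markers (r = 0.676, 0.657 and 0.599). The remaining pairs were Ntng2 against thalamus and habenula markers (r = -0.641) and Lrrtm3, Elfn2 and Cadm2 with meningeal fibroblast markers (r = 0.622, -0.602 and -0.650). The 7 pairs whose rho did not pass were C1ql3 with the granule cell and the CA2 and CA3 markers, Cadm2 with the precursor and the meningeal markers, Lrrtm3 with the meningeal, Cbln2 with the neocortex and Ntng2 with the thalamus markers. Without mouse 18, 7 of the 22 pairs had no adjusted p under 0.05, some of them with little change in r. They were the 3 meningeal pairs, at r = 0.436 for Lrrtm3, -0.516 for Elfn2 and -0.482 for Cadm2, C1ql3 (r = -0.512) and Lrrtm3 (r = -0.550) with the CA2 and CA3 markers, Cadm2 with the precursor markers (r = 0.4995) and Cbln1 with the neocortex markers (r = 0.561). No member reached an adjusted p under 0.05 for r with GABAergic interneuron, astrocyte, oligodendrocyte, microglia, endothelial, choroid plexus, immediate early or red blood cell markers.

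**Figure D4:**
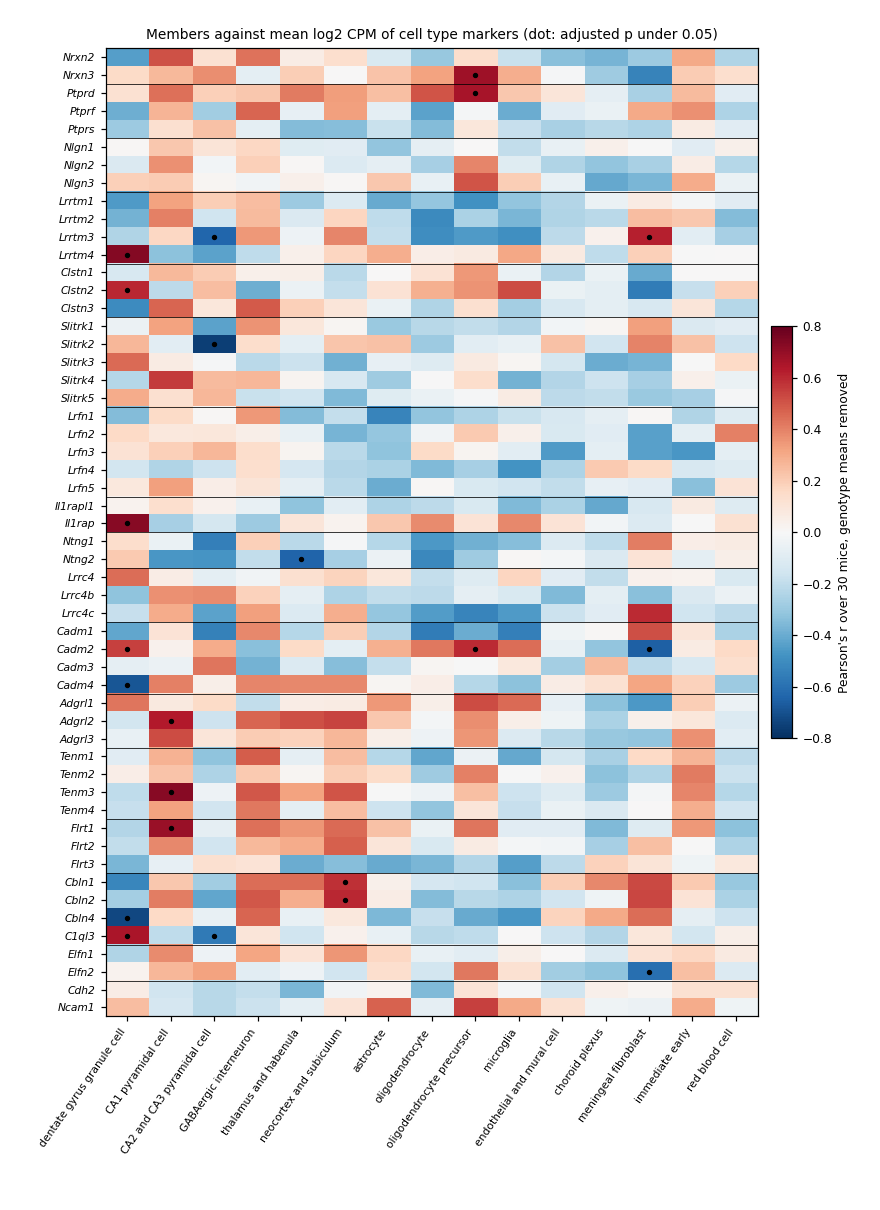
Pearson's r over 30 mice between the log2 CPM of each member (rows, ruled by family) and the mean log2 CPM of each marker list (columns), genotype means removed; a black dot marks an adjusted permutation p under 0.05. The 22 dots lie in 7 columns, with 7 of them under dentate gyrus granule cell.

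**Figure D5:**
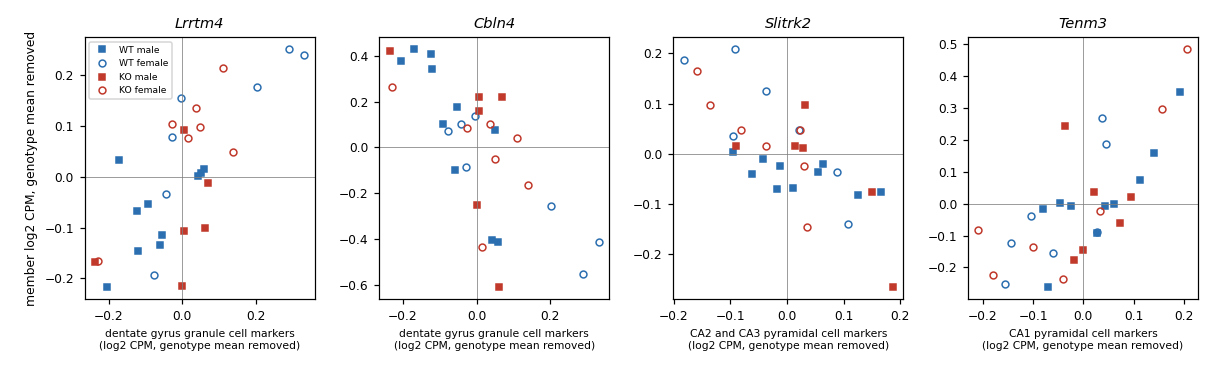
Log2 CPM of Lrrtm4, Cbln4, Slitrk2 and Tenm3 against the mean log2 CPM of the marker list named under each panel, 1 point a mouse, with the genotype mean removed from both axes (WT blue, KO red, filled squares male, open circles female). The points rise to the right for Lrrtm4 (r = 0.737) and Tenm3 (r = 0.730) and descend for Cbln4 (r = -0.731) and Slitrk2 (r = -0.755), in both genotypes.

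Sequences before the start of Lrrtm4 and Cbln4 are shown because these members had the highest and the lowest correlation with the granule cell markers. They are the 250 bases before each RefSeq transcription start in GRCm38.p6, 5′ to 3′ on the strand of the gene, at chr6:80018627-80018876 (plus strand) for Lrrtm4 and chr2:172043467-172043716 (minus strand) for Cbln4. Capitals mark matches on either strand to the E-box CAGCTG, the GC box GGGCGG, the TATA box TATAAA and the cyclic AMP response element TGACGTCA.
Lrrtm4: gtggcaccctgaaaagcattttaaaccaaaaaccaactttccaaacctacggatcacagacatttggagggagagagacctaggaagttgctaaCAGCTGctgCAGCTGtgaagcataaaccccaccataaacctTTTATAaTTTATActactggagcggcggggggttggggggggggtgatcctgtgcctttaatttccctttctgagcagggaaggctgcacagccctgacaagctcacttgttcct
Cbln4: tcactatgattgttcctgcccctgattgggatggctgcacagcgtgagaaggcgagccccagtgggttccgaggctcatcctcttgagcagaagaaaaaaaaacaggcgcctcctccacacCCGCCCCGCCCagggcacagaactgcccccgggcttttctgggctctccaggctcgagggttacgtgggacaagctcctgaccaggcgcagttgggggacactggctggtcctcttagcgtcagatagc
Upstream of Lrrtm4 there were E-box and TATA box letters and 3 CG dinucleotides, and upstream of Cbln4 there were GC box letters on overlapping positions and 11 CG dinucleotides. RefSeq upstream sequence was available for 41 of the 54 members. Of those 41, 17 held a GC box (41.5%, against 35.4% of the 27025 genes with a sequence), 5 an E-box (12.2% against 14.7%), 4 a TATA box (9.76% against 14.3%) and 3 a cyclic AMP response element (7.32% against 1.77%), the last in Clstn2, Slitrk2 and Tenm3. These matches are letters only and were not compared with any binding data.

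Members were also correlated with one another, over 1431 pairs. An adjusted permutation p under 0.05 was found for 140 pairs, of which 121 had a positive r. Within families it was 19 of 67 pairs, 17 of them positive. In the teneurins every pair passed: in all 6 r lay between 0.692 and 0.823 and rho between 0.665 and 0.756, with permutation p-values from 1e-05 to 3e-05 for r (adjusted 0.0011 to 0.0017) and from 2e-05 to 0.00014 for rho (adjusted 0.0032 to 0.0065). Without the 2 farthest mice r lay between 0.590 and 0.794.

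Across families, Nrxn3 and Cadm2 had the highest r, 0.847 (permutation p = 1e-05, adjusted p = 0.0011), with rho = 0.813 (permutation p = 1e-05, adjusted p = 0.002) and r = 0.781 without the 2 farthest mice. The latrophilin Adgrl3 and its teneurin partner Tenm3 were at r = 0.821, and Lrrtm4 and C1ql3, both followers of the granule cell markers, at r = 0.715 (adjusted permutation p = 0.0011 for each pair). Cadm1 and Cadm2, both SynCAMs, ran against each other at r = -0.694 (permutation p = 0.00034, adjusted p = 0.0097), with rho = -0.587 (permutation p = 0.00086, adjusted p = 0.019). For this pair r was -0.555 without the 2 farthest mice. Mouse 18 had the lowest Cadm1 and the highest Cadm2 of all mice.

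Members share features that no rule used. Their median span on the genome was 65.5 kb, against 22.3 kb for all genes tested, and 13 of the 54 spanned over 500 kb, against 1.33% of genes tested. The longest, Ptprd, spans 2271 kb. The 13 long members had a median log2 fold change of -0.02, and all tested genes of that length one of -0.01. On the X chromosome lie 5 members, Nlgn3, Slitrk2, Slitrk4, Il1rapl1 and Tenm1. Nlgn2 and Tenm2 lie on chromosome 11 with Timp2, at 48.5 Mb and 81.1 Mb from it, and neither had an unadjusted p under 0.05.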

How the data were processed

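The authors extracted hippocampal RNA (RNA integrity number over 8), made poly(A)-selected libraries and deposited counts: whole reads per gene for every mouse, not normalized. The submitters' processing notes name Trimmomatic 0.36, STAR 2.5.2b, featureCounts and Subread 1.5.2. Reads were aligned to GRCm38. The strand setting and annotation release were not given in the sources used here, so antisense overlaps are uncertain.

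All 30 columns matched a mouse. Symbols, exons and positions came from GENCODE M21. Counts were fitted with edgeR 4.0.16 in R 4.3.3 (TMM, filterByExpr, robust quasi-likelihood, Benjamini-Hochberg over all genes tested), after tests on simulated counts. Log2 CPM used a prior count of 2. Depth was ample, and the common biological coefficient of variation of 7.5% set the precision. Correlations used Python 3.11.15, numpy 2.4.6 and scipy 1.17.1.

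The members and lists were chosen with earlier results of these data known. Described with ranges were members with an unadjusted p under 0.05 for genotype or the interaction, the most abundant of each family, the 2 most positive and 2 most negative, and the 3 most and 3 least variable. The values of 1 gene among the cytoplasmic partners are not reported here.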

Additional observations from a re-analysis of the deposited data

Results flagged for a closer look

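Among the 12 groups of 1 sex and genotype examined for the 3 members named for the interaction, 1 held a mouse set apart from the others by Dixon's test. In KO females the lowest log2 CPM of Slitrk3, 6.57, was that of mouse 11, the mouse with the most choroid plexus RNA. Chance flags about 1 in 20 groups, or 0.6 of 12. Its cause was not tested.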

How the results depend on the processing

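The alternatives were DESeq2 1.42.0, RLE size factors, limma 3.58.1 voom with weights per sample, a filter of 10 counts in each mouse or none, total counts or sex in the model, surrogate variables (sva) beside sex, each sex alone and the fit without mouse 11. The fit without robust estimation, the granule cell covariate and the fit without mouse 18 were chosen after seeing the data. The number of members with an unadjusted p under 0.05 for KO against WT was 5, and moved by over 1.5 times to 3 with sex and surrogate variables, 2 in males alone and 2 with the granule cell covariate. The cause was not tested, except that males alone leave fewer mice. The count of members with an adjusted p stayed at 0 in every fit named. For females against males that count was 0, and 1 with DESeq2, no filter, total counts, voom (Lrrtm4 in these 4) and the granule cell covariate (Clstn2). Over all genes, 804 had an unadjusted p under 0.05 for KO against WT, 1878 without a filter (33550 genes tested) and 524 in males alone. That count was 895 with sex and surrogate variables and 650 with the granule cell covariate. The interaction count was 3, and 1 without mouse 11 and 0 with the granule cell covariate. The count over the 3 other lists was 8, and 4 in males alone and 4 with the granule cell covariate. The median level of the members was 10.3 FPKM and 14.8 FPKM per longest transcript. Of the 22 marker pairs, 18 kept an adjusted p under 0.05 with sex removed, 19 without mouse 11 and 15 without mouse 18, where 22, 21 and 17 pairs passed in all. Over the 26 members given with ranges, 369 comparisons reversed no call, 17 lost and 5 gained an unadjusted p under 0.05. No paired analysis was possible because the replicate numbers only name the mice. The paper treated isolation or harvest date as a batch effect in its co-expression network. Harvest dates were not in the labels, so their part was not tested.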
